A study of Arabidopsis thaliana with 12 samples.

Results

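The bleomycin response of wild-type root tips of Arabidopsis thaliana was described gene by gene from 6 of the 12 RNA-seq libraries of the series. These were the 3 libraries of accession Col-0 taken after 24 h on medium with 0.5 µg/ml bleomycin and the 3 libraries of Col-0 kept on control medium for the same comparison. Col-0 is the unmutated laboratory wild type, and the labels give no mutation or transgene for either group. About 100 seeds per sample were sown on a nylon mesh, the mesh was moved 7 days after sowing, and root tips cut at 0.2 cm were pooled for RNA, so each value is an average over many plants and over all cell types of the tip. The other 6 libraries come from the scl5 scl21 pat1 triple mutant, which lacks 3 GRAS-family regulators named in its label, with and without the same bleomycin treatment. They were used to estimate the spread between replicates and as a separate set of libraries in which each gene could be looked up. Reads were summed per locus, and 21457 of 36899 nuclear loci listed were abundant enough to be tested. Per the labels these are biological replicates, and a p-value here reflects how much such samples spread.

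In what follows, a library is named by its treatment and number, as in bleomycin library 1 or control library 2, and those of the triple mutant are named as such. The log2 fold change of bleomycin over control is written log2FC, with its standard error (SE).

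Bleomycin is a glycopeptide drug that binds metal ions and breaks DNA strands. In plants the kinases ATM and ATR sense broken or stalled DNA and activate SOG1, a NAC-family transcription factor that takes the place p53 has in animals. SOG1 switches on repair genes and inhibitors of cyclin-dependent kinases, which hold cells before division while DNA is repaired, and dying stem cells in the root tip can be replaced by division of their neighbours.

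The 6 libraries held 36.6 to 40.9 M reads (M for mega). Levels below are in CPM, reads scaled to the size of the library, and 3 reads in a library correspond to 0.0734 to 0.0819 CPM. Such floors cover counting error only. On the first principal component of the 12 libraries, which held 34.3% of the variance, the Col-0 bleomycin libraries lay at 33.8 to 73.1 and the Col-0 control libraries at -64.3 to -5.03, with control library 1 nearest to the bleomycin libraries. Triple mutant control library 3 stood apart from the other libraries at -125.9. Markers of the root tip were present in all 6 libraries. PLT1, a stem cell factor, had 19.3, 31.96 and 30.8 CPM after bleomycin and 26.02, 42.4 and 43.4 CPM in control, and SCR, an endodermis and stem cell factor, had 58.1, 43.7 and 48.6 CPM after bleomycin and 59.8, 54.98 and 51.3 CPM in control. Of 10 leaf photosynthesis genes 8 were measured and 0 were called by edgeR, DESeq2 or limma voom, with 1 at an unadjusted p under 0.05, and RBCS1B and RBCS3B were listed at 0 in every library. The measured ones summed to 49.7, 28.8 and 22.2 CPM after bleomycin, against 39.4, 24.7 and 18.8 CPM in control. In whole root tips, fewer cells of a type and less RNA per cell cannot be told apart.

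Bleomycin changed 1455 of the 21457 genes at an edgeR adjusted p under 0.05 (6.78% of those tested), 925 of them higher (4.31%) and 530 lower (2.47%). A gene past this threshold is referred to as called. Rises were larger than falls: the median log2 fold change was 1.04 among genes called higher and -0.63 among those called lower, against 0.01 over all tested genes. More than a 2-fold change was seen in 488 genes called higher (2.27% of those tested), or 52.8% of them, and in 70 called lower (0.326%), or 13.2% of them, and more than a 4-fold change in 187 and 12 genes. The genes that rose had a median of 13.2 CPM in control, near the 14.7 CPM of all tested genes, while those that fell had a median of 46.4 CPM there. Together the risers took 7.19, 6.43 and 6.58% of the scaled reads after bleomycin, against 3.98, 3.24 and 3.42% in control, and the fallers took 5.31, 6.26 and 6.75% after bleomycin, against 8.19, 9.52 and 9.75% in control. The 3 bleomycin libraries and the 3 control libraries did not overlap in 1449 of the 1455 called genes, and the same held for 30.1% of all tested genes. The number of calls depended on single libraries. Leaving out control library 2 gave 285 genes called higher and 71 genes called lower, leaving out control library 3 gave 350 and 84, and leaving out bleomycin library 1 gave 468 and 115. Genes called lower numbered 214 when bleomycin library 2 was left out. The calls past 2-fold, 558 in both directions together, were 245, 287 and 358 without control library 2, control library 3 and bleomycin library 1, and 901 without control library 1. The called genes described below kept their call when any 1 of the 12 libraries was left out, unless the libraries that decided it are named.

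**Figure D1:**
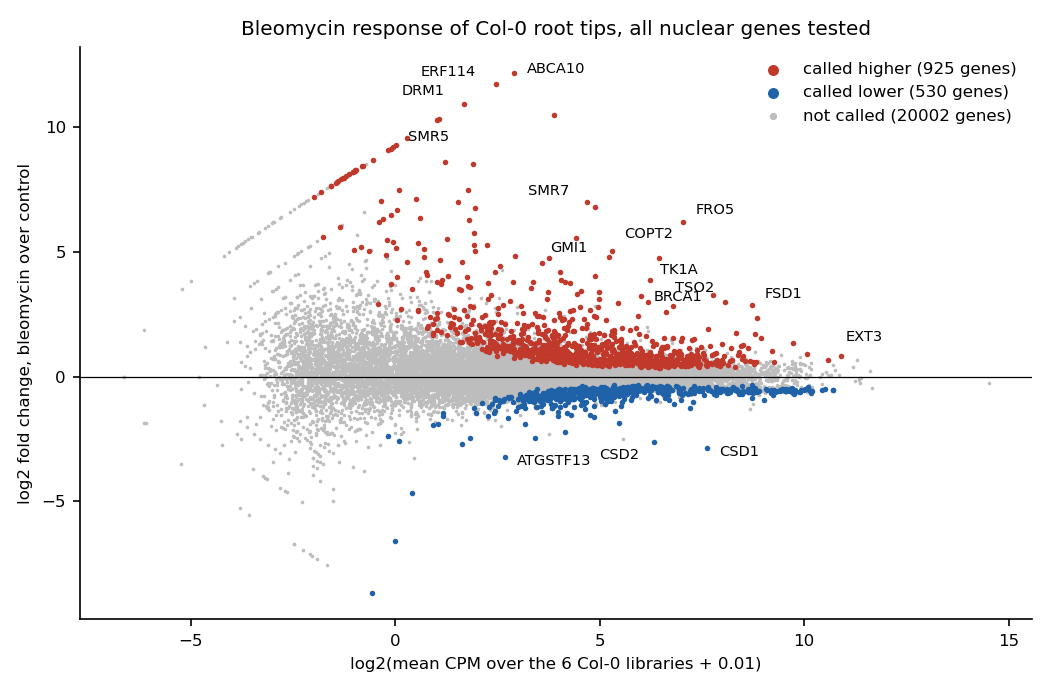
Log2 fold change (bleomycin over control) of each tested nuclear gene in Col-0 root tips against its mean level over the 6 libraries, on a log2 scale of CPM. Red points are the 925 genes called higher and blue points the 530 called lower, and the straight diagonal line of points at the upper left is made of genes with 0 reads in all control libraries, whose fitted fold depends on the fitting procedure.

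The largest rises were in genes that were silent or nearly so in control tips. In 30 genes called higher, the 3 control libraries held 0 reads, and folds for these are lower bounds against 3 reads summed over the control group. ABCA10 (AT5G61740), an ABC transporter gene, had 19.4, 18.2 and 7.297 CPM after bleomycin and 0 reads in control, at least 594-fold higher (log2FC 12.18, SE 0.94, edgeR adjusted p = 3.3e-05). AT4G25330, annotated as a SAWADEE protein, had 6.11, 3.998 and 2.41 CPM and again 0 control reads, at least 165-fold higher (edgeR adjusted p = 4.5e-04). Genes with reads in control reached higher levels. AT5G60250, a RING finger gene, had 62.4, 66.02 and 48.1 CPM after bleomycin, against 1.105, 0.377 and 0.0756 CPM in control (log2FC 6.80, SE 0.55, edgeR adjusted p = 1.3e-05), and its log2FC was 8.02 without control library 1. AT4G22960, annotated as FAM63A-like, had the lowest adjusted p of the risers together with TSO2, with 45.8, 46.1 and 33.99 CPM against 1.28, 0.726 and 0.630 CPM (log2FC 5.57, SE 0.27, edgeR adjusted p = 3.6e-07). NRT2.7 (AT5G14570), a nitrate transporter gene known from seed vacuoles, was not silent in control, with 286, 319 and 109 reads there. It had 132, 237 and 133 CPM after bleomycin, against 7.02, 8.58 and 2.75 CPM in control (log2FC 4.77, SE 0.42, edgeR adjusted p = 3.0e-05). In each of these genes every bleomycin library lay above every control library.

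In terms of reads gained, the response was led by abundant genes with moderate folds. EXT3 (AT1G21310), a cell wall extensin, gained the most, with 2793, 2296 and 2298 CPM after bleomycin and 1521, 1271 and 1356 CPM in control (log2FC 0.83, SE 0.12, edgeR adjusted p = 0.0022). GSTU25 (AT1G17180), a glutathione transferase of the tau class, had 1263, 932.0 and 1459.6 CPM, against 622, 349 and 462 CPM (log2FC 1.35, SE 0.19, edgeR adjusted p = 0.0018). AT1G07590, annotated as a tetratricopeptide repeat protein, had 946, 751 and 599.8 CPM, against 194, 135 and 117 CPM (log2FC 2.37, SE 0.24, edgeR adjusted p = 9.4e-05). AT2G43610, a chitinase gene, gained more than 500 CPM with 1727, 1127 and 1356 CPM against 1058, 539 and 649 CPM (log2FC 0.91, SE 0.23, edgeR adjusted p = 0.0372). AT2G43610 was not called without bleomycin library 1 or 3, control library 2 or 3, or triple mutant control library 1 or 2 (edgeR adjusted p = 0.0523 to 0.163). The dehydrin gene ERD14 (AT1G76180), with 885, 644 and 674 CPM against 364, 209 and 183 CPM (log2FC 1.54, SE 0.28, edgeR adjusted p = 0.0073), was not called without control library 2 (edgeR adjusted p = 0.0534).

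The sensors and the master regulator of the damage response were not called, while a few other genes of this list rose. Of 16 damage signalling genes 4 were called higher and 1 lower, with a median log2 fold change of -0.20, beside 4.31 and 2.47% called over all genes. SOG1 itself (AT1G25580) had 18.5, 16.1 and 19.5 CPM after bleomycin and 21.9, 25.5 and 16.7 CPM in control (log2FC -0.24, SE 0.18, edgeR adjusted p = 0.437). ATM (AT3G48190) had 35.4, 26.8 and 25.97 and 35.1, 32.1 and 38.7 CPM (-0.26, edgeR adjusted p = 0.297), and ATR (AT5G40820) had 16.7, 12.7 and 12.6 and 16.1, 14.9 and 12.3 CPM (-0.04, edgeR adjusted p = 0.932). The ranges of the groups overlapped for each of these genes. NAC044 (AT3G01600), a close relative of SOG1 that holds cells before mitosis, had 32.3, 33.1 and 27.1 CPM after bleomycin, against 2.31, 0.619 and 3.402 CPM in control (log2FC 3.86, SE 0.52, edgeR adjusted p = 0.0013). RAD17 (AT5G66130), which loads the checkpoint clamp onto damaged DNA, had 33.6, 37.5 and 28.5 CPM, against 4.93, 6.37 and 4.94 CPM (log2FC 2.62, SE 0.27, edgeR adjusted p = 1.4e-04). Neither gene's groups came near each other. The second relative, NAC085 (AT5G14490), had 4.08, 2.78 and 2.09 CPM, against 0.0982, 0 and 0 CPM (log2FC 6.34, SE 1.26, edgeR adjusted p = 0.0123). NAC085 was not called without control library 2 (edgeR adjusted p = 0.0688) or control library 3 (edgeR adjusted p = 0.0591), and its log2FC was 9.84 without control library 1. WEE1 (AT1G02970), a kinase that restrains cyclin-dependent kinases, had 10.1, 15.005 and 11.9 CPM against 8.35, 8.02 and 7.48 CPM (log2FC 0.63, SE 0.17, edgeR adjusted p = 0.0419). WEE1 was not called without bleomycin library 2 or 3, control library 1, 2 or 3, triple mutant bleomycin library 1, 2 or 3, or triple mutant control library 1 or 2 (edgeR adjusted p = 0.0516 to 0.156). ATRIP (AT5G45610), the partner of ATR, had 8.09, 8.198 and 9.04 CPM against 11.2, 15.04 and 17.2 CPM (log2FC -0.78, SE 0.19, edgeR adjusted p = 0.0335). ATRIP was not called without bleomycin library 1, 2 or 3, or control library 2 or 3 (edgeR adjusted p = 0.0558 to 0.155). The list held 2 risers and 0 fallers when control library 2 or control library 3 was left out.

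Inhibitors of cyclin-dependent kinases, which stop cells from entering the next phase of the cycle, responded in a few members of the SIAMESE-related (SMR) family. Of 21 measured inhibitor genes 5 were called higher and 1 lower, with a median of 0.18, beside 4.31 and 2.47% called over all genes. SMR7 (AT3G27630) had 50.5, 62.1 and 40.2 CPM after bleomycin, against 0.466, 0.430 and 0.277 CPM in control (log2FC 7.01, SE 0.45, edgeR adjusted p = 2.9e-06), and was the inhibitor with the largest rise among those with control reads. SMR5 (AT1G07500) had 2.203, 2.404 and 1.39 CPM and 0 reads in each control library, at least 78.9-fold higher (edgeR adjusted p = 0.0015). SMR1 (AT3G10525), which was already abundant, had 40.3, 53.4 and 46.8 CPM, against 26.5, 29.7 and 29.6 CPM (log2FC 0.71, SE 0.13, edgeR adjusted p = 0.0068). Groups did not overlap in any of these. SMR4 (AT5G02220) had 7.89, 10.4 and 8.56 CPM against 2.897, 2.501 and 1.69 CPM (log2FC 1.92, SE 0.46, edgeR adjusted p = 0.0294). SMR4 was not called without bleomycin library 1, 2 or 3, or control library 2 or 3 (edgeR adjusted p = 0.052 to 0.129). KRP6 (AT3G19150), of the other inhibitor family, had 13.7, 17.1 and 12.8 CPM against 7.02, 8.28 and 8.64 CPM (log2FC 0.87, SE 0.24, edgeR adjusted p = 0.0478). KRP6 was not called without bleomycin library 1, 2 or 3, control library 1, 2 or 3, triple mutant bleomycin library 1, or triple mutant control library 1 (edgeR adjusted p = 0.0595 to 0.15). KRP3 (AT5G48820) was lower, with 3.53, 2.83 and 4.08 CPM against 5.89, 8.26 and 9.499 CPM (log2FC -1.18, SE 0.24, edgeR adjusted p = 0.0145). KRP3 was not called without control library 2 (edgeR adjusted p = 0.0717) or control library 3 (edgeR adjusted p = 0.0769). SIAMESE itself (SIM, AT5G04470), at 75.6, 75.8 and 70.3 CPM and 59.6, 58.04 and 56.04 CPM, missed the threshold (log2FC 0.35, edgeR adjusted p = 0.11) although its groups did not overlap. Leaving out any bleomycin library, control library 2 or control library 3 brought the risers of this list to 3.

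The letters CTT followed, after 7 bases of any kind, by AAG form the palindrome that SOG1 is known to bind. They occur in the 250 bases before the start of 4 of the 21 inhibitor genes, KRP7, SMR4, SMR5 and SMR7. They also stand before NAC044 and PARP2 and before other genes named here, among them RAD54, COM1, FRO4, IRT1, XTH28 and EXPA14. They are absent before the risers BRCA1, GMI1, XRI1, TSO2, RNR1, TK1A, RAD17, PARP1 and CYCB1;1. By list they stand before 2 of 16 damage signalling, 3 of 32 recombination, 3 of 15 end joining and 0 of 6 nucleotide supply genes. The stretches of 5 damage response genes are printed to show where these letters stand relative to the start, in lower case with the motif in capitals, 5′ to 3′ on the strand of the gene, from RefSeq assembly TAIR10.1.
SMR7, chr3:10231568-10231640, minus strand: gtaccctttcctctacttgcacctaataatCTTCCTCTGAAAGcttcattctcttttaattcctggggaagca
SMR5, chr1:2305032-2305093, minus strand: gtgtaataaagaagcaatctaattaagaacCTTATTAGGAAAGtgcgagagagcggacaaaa
SMR4, chr5:442231-442303, minus strand: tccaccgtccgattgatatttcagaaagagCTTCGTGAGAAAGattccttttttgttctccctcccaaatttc
NAC044, chr3:228980-229052, plus strand: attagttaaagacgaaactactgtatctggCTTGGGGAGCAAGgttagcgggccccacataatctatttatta
PARP2, chr4:1049640-1049712, plus strand: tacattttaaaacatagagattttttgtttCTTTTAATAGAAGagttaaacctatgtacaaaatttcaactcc
The motif begins 43 bases before the start in SMR7, 32 in SMR5, 86 in SMR4, 65 in NAC044 and 96 in PARP2, and SMR5 holds a second copy in its 250 bases. The motif was searched on both strands, which read alike for a palindrome. It stood in 10.9% of promoters of genes called higher (101 of 925), in 16.6% of those more than 4-fold higher (31 of 187, 95% Wilson interval 11.9 to 22.6%), in 7.36% of those called lower (39 of 530) and in 9.26% of all 21456 tested genes with a promoter sequence. A match is a string of letters and no evidence of binding.

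Genes for repair by homologous recombination, in which an intact copy is used as template, rose in part. Of 32 measured genes 12 were called higher and 0 lower, with a median of 0.21, against 4.31 and 2.47% over all genes. BRCA1 (AT4G21070), which directs breaks to this pathway, had 122, 127 and 98.4 CPM after bleomycin, against 12.8, 11.7 and 12.98 CPM in control (log2FC 3.21, SE 0.26, edgeR adjusted p = 1.3e-05). GMI1 (AT5G24280), a gene known for its induction by ionising radiation, had 88.96, 74.2 and 53.5 CPM, against 3.49, 2.39 and 1.81 CPM (log2FC 4.81, SE 0.34, edgeR adjusted p = 4.4e-06). All of these lay far above control in every library. XRI1 (AT5G48720), known for its induction by X-rays and its role in meiosis, had 171, 246 and 163 CPM, against 24.7, 29.3 and 28.2 CPM (log2FC 2.82, SE 0.19, edgeR adjusted p = 3.8e-06). SYN2 (AT5G40840), a cohesin subunit, had 71.7, 57.2 and 57.03 CPM, against 18.1, 17.3 and 16.8 CPM (log2FC 1.83, SE 0.14, edgeR adjusted p = 9.1e-06). Genes best known from meiosis rose as well. HOP2 (AT1G13330) and MND1 (AT4G29170), whose products form a complex that helps DNA strands pair, had 14.5, 17.2 and 11.03 CPM against 2.97, 3.900 and 3.301 CPM (2.07, SE 0.31, edgeR adjusted p = 0.0023) and 23.3, 27.7 and 18.9 CPM against 5.74, 8.203 and 8.54 CPM (1.64, SE 0.21, edgeR adjusted p = 8.7e-04). COM1 (AT3G52115), which trims broken ends, had 22.4, 20.7 and 21.8 CPM, against 7.17, 7.93 and 5.59 CPM (log2FC 1.65, SE 0.22, edgeR adjusted p = 0.001).

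Among the large subunits of RPA, the complex that covers single-stranded DNA, RPA70E (AT4G19130) had 22.6, 20.4 and 20.01 CPM after bleomycin, against 8.44, 9.36 and 9.02 CPM in control (log2FC 1.23, SE 0.21, edgeR adjusted p = 0.0049). RPA70C (0.88) was not called without control library 2 (edgeR adjusted p = 0.0705), and RPA70A (0.60) not without bleomycin library 1, 2 or 3, control library 2 or 3, triple mutant bleomycin library 1 or 2, or triple mutant control library 1 or 2 (edgeR adjusted p = 0.0507 to 0.181). RAD54 (0.63), a DNA translocase of recombination, was not called without bleomycin library 1, or control library 2 or 3 (edgeR adjusted p = 0.0874 to 0.118). The RPA subunits RPA70B and RPA70D had log2FC values of -0.09 and 0.07 and were not called. Nor were BRCA2A and BRCA2B, which act in recombination (-0.23 and -0.01), BARD1, the partner of BRCA1, at 23.1, 19.99 and 25.99 CPM after bleomycin and 19.96, 27.1 and 18.7 CPM in control (0.07, edgeR adjusted p = 0.878), or XRCC2 and XRCC3, which act in the same pathway (-0.53 and -0.47). The rise was uneven within the pathway.

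End joining, which seals breaks without a template, showed no call among its core genes. KU70 and KU80, the proteins that hold broken ends, had log2FC values of -0.08 and 0.00 (edgeR adjusted p = 0.733 and 0.989), with 32.2, 29.9 and 32.4 CPM and 21.9, 19.7 and 21.7 CPM after bleomycin, against 34.2, 34.02 and 31.3 CPM and 23.3, 21.2 and 18.7 CPM in control. The ligase LIG4 and its partner XRCC4 were at 0.33 and 0.01 (edgeR adjusted p = 0.178 and 0.962). Of 15 measured genes of end joining and strand break repair, the 2 called were poly(ADP-ribose) polymerases, which mark broken DNA. The share called higher was 13.3%, beside 4.31% over all genes. The list gave 4 risers when triple mutant control library 3 was left out, and 6 at an unadjusted p under 0.05 in edgeR. PARP2 (AT4G02390) had 136, 147 and 106 CPM after bleomycin, against 18.3, 14.9 and 15.1 CPM in control (log2FC 3.01, SE 0.19, edgeR adjusted p = 2.9e-06), and PARP1 (AT2G31320) had 69.4, 70.1 and 63.7 CPM, against 25.1, 21.2 and 25.4 CPM (log2FC 1.503, SE 0.11, edgeR adjusted p = 9.1e-06). The groups of both genes were far apart.

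Genes that supply DNA building blocks rose in part, and replication genes gave 1 call. Of 6 genes of nucleotide supply 3 were called higher. TSO2 (AT3G27060), which encodes a small subunit of the enzyme ribonucleotide reductase, had 546, 454 and 433 CPM after bleomycin, against 58.7, 55.9 and 65.8 CPM in control (log2FC 2.99, SE 0.15, edgeR adjusted p = 3.6e-07). RNR1 (AT2G21790), the large subunit of the same enzyme, had 211, 178 and 167 CPM, against 71.5, 62.5 and 72.9 CPM (log2FC 1.43, SE 0.12, edgeR adjusted p = 2.4e-05). TK1A (AT3G07800), a thymidine kinase, had 168, 136 and 117 CPM, against 10.6, 10.9 and 7.61 CPM (log2FC 3.85, SE 0.24, edgeR adjusted p = 2.6e-06). Their close relatives were not called. The other small subunit RNR2A had 19.1, 12.2 and 13.4 CPM against 13.5, 15.4 and 14.7 CPM (log2FC 0.03). The other thymidine kinase TK1B had 7.21, 6.35 and 9.55 CPM against 8.32, 8.23 and 8.19 CPM (log2FC -0.10), and the groups overlapped in both genes. Of 18 replication genes 0 were called higher and 1 lower, beside 4.31 and 2.47% over all genes. MCM2, a helicase subunit, had 42.04, 36.1 and 41.6 CPM and 40.5, 39.2 and 39.9 CPM, and MCM2 to MCM7 had log2FC values between -0.22 and 0.02. The gene called lower, FEN1 (AT5G26680), a nuclease that processes DNA flaps, had 34.4, 31.1 and 37.9 CPM against 44.5, 46.6 and 46.1 CPM (log2FC -0.41, SE 0.10, edgeR adjusted p = 0.0355). FEN1 was not called without bleomycin library 1 or 2, control library 2 or 3, or triple mutant control library 1 (edgeR adjusted p = 0.0511 to 0.14).

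Most genes of mitosis had values below control by small amounts, and few passed the test. Of 29 measured genes 26 had a log2 fold change below 0, and the median was -0.44. Calls were 2 higher and 1 lower (6.90 and 3.45%), near the 4.31 and 2.47% over all genes. The list's main riser was CYCB1;1 (AT4G37490), the B-type cyclin known to be induced by DNA damage, with 46.7, 51.3 and 57.7 CPM after bleomycin, against 18.7, 19.7 and 21.1 CPM in control (log2FC 1.39, SE 0.12, edgeR adjusted p = 2.9e-05). Its relatives CYCB1;2, CYCB1;3 and CYCB1;4 had log2FC values of -0.77, -0.46 and -0.36 and were not called. Bleomycin library 3 lay above the other bleomycin libraries in several of these genes. KN, a syntaxin of the cell plate, had 22.6, 20.4 and 45.8 CPM after bleomycin and 51.4, 44.8 and 49.9 CPM in control (log2FC -0.72, SE 0.33, edgeR adjusted p = 0.205), so that bleomycin library 3 lay within the control range. Leaving out bleomycin library 3 gave 4 genes lower, and leaving out control library 1 gave 2. CCS52A1 (AT4G22910), which drives the exit from the cell cycle into endoreduplication, had 54.6, 60.4 and 60.1 CPM against 40.3, 44.4 and 39.4 CPM (log2FC 0.50, SE 0.10, edgeR adjusted p = 0.0144). CCS52A1 was not called without control library 3 (edgeR adjusted p = 0.0758). POK1, a kinesin of the division plane, had 21.7, 20.5 and 22.5 CPM against 33.5, 35.9 and 33.6 CPM (log2FC -0.67, SE 0.17, edgeR adjusted p = 0.0378). POK1 was not called without bleomycin library 1, 2 or 3, control library 2 or 3, or triple mutant bleomycin library 1 (edgeR adjusted p = 0.0518 to 0.144).

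**Figure D2:**
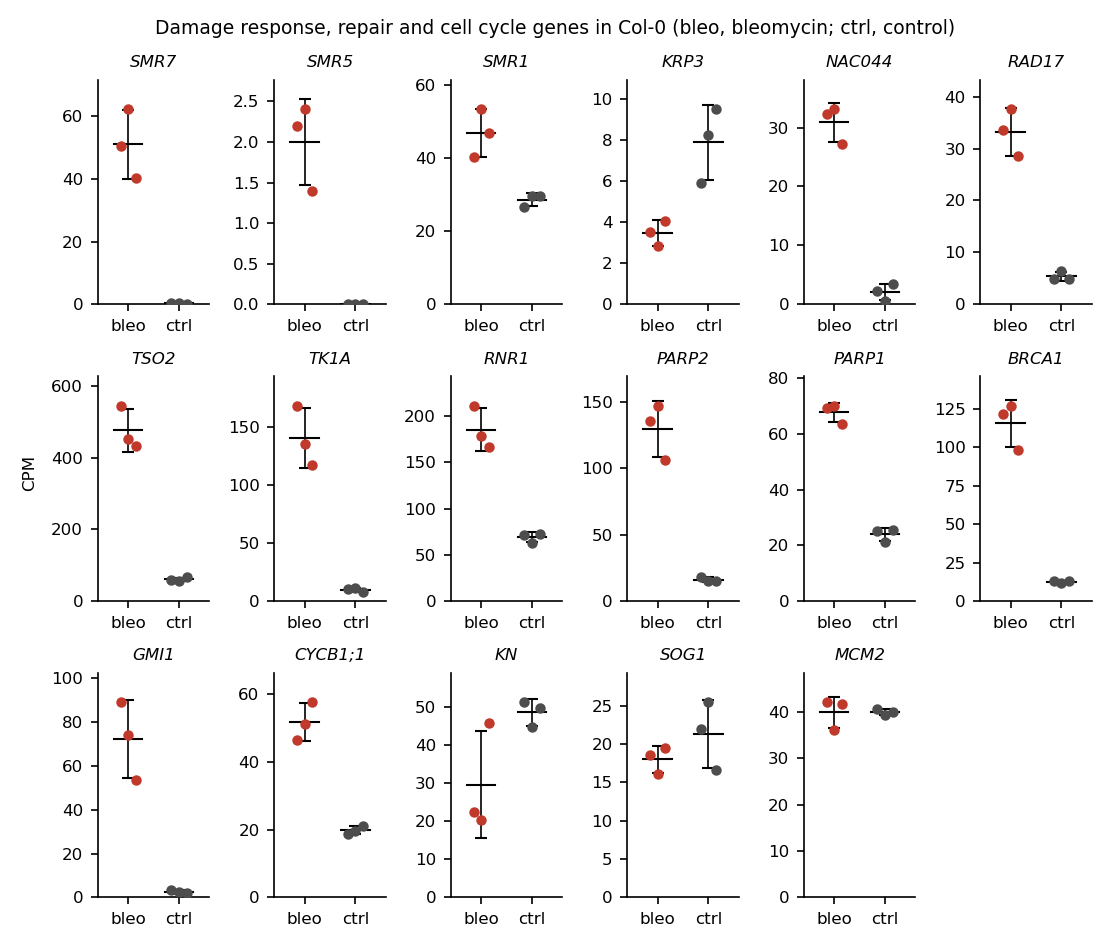
Level in CPM of 17 genes of kinase inhibition, damage signalling, nucleotide supply, repair, mitosis and replication in each Col-0 library, with bleomycin (bleo) left of control (ctrl). Points are libraries and bars are the mean ± SD of 3 libraries. SMR7, TSO2 and BRCA1 are far above control in every library, SOG1 and MCM2 overlap with control, and in KN bleomycin library 3, at 45.8 CPM, lies among the controls.

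A broad change in copper economy ran beside the damage response. Plants short of copper switch on uptake through the regulator SPL7 and replace copper-containing superoxide dismutases by an iron-containing one, and members of that programme changed here. Of 27 measured genes 10 were called higher and 4 lower, with a median of 0.64, beside 4.31 and 2.47% called over all genes. COPT2 (AT3G46900), a copper importer of the plasma membrane, had 100.3, 65.99 and 63.4 CPM after bleomycin, against 3.49, 2.85 and 0.554 CPM in control (log2FC 5.06, SE 0.63, edgeR adjusted p = 6.3e-04). ZIP2 (AT5G59520), a metal transporter, had 252, 183 and 237 CPM, against 113, 76.4 and 57.1 CPM (log2FC 1.45, SE 0.22, edgeR adjusted p = 0.0022). YSL2 (AT5G24380), which moves metals bound to nicotianamine, had 77.1, 86.97 and 67.6 CPM, against 14.6, 7.93 and 7.46 CPM (log2FC 2.95, SE 0.27, edgeR adjusted p = 3.7e-05). Every bleomycin library lay above every control library in each. CCH (AT3G56240), a copper chaperone, had 782, 597 and 655 CPM, against 296, 182 and 145 CPM (log2FC 1.71, SE 0.28, edgeR adjusted p = 0.0038). CITF1 (AT1G71200), a bHLH factor induced by copper shortage, had 31.5, 44.03 and 32.8 CPM, against 2.65, 3.95 and 1.36 CPM (log2FC 3.77, SE 0.34, edgeR adjusted p = 3.3e-05). SPL7 itself (AT5G18830) had 72.2, 51.4 and 61.8 CPM after bleomycin and 62.1, 59.4 and 60.8 CPM in control (0.02, edgeR adjusted p = 0.944), with overlapping groups.

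The copper reductases rose with less certainty, and FRO5 had the largest log2FC of the list. FRO5 (AT5G23990), which reduces copper at the root surface, had 428, 170.3 and 176 CPM after bleomycin, against 6.78, 3.71 and 0 CPM in control (log2FC 6.20, SE 1.17, edgeR adjusted p = 0.0092). It was not called without control library 2 (edgeR adjusted p = 0.0607), and its log2FC was 7.13 without control library 1 and 5.62 without control library 3. FRO4 (AT5G23980), its neighbour on the chromosome and close copy, had 60.6, 26.01 and 32.3 CPM, against 7.83, 2.93 and 1.31 CPM (log2FC 3.295, SE 0.73, edgeR adjusted p = 0.0205). FRO4 was not called without bleomycin library 1, or control library 2 or 3 (edgeR adjusted p = 0.0639 to 0.107), and its log2FC was 4.22 without control library 1, and Salmon may split reads between such copies uncertainly. HMA5 (1.12), a copper-pumping ATPase, was not called without bleomycin library 1, or control library 2 or 3 (edgeR adjusted p = 0.0595 to 0.0988), and COPT1 (0.74), another importer, not without bleomycin library 2, or control library 2 or 3 (edgeR adjusted p = 0.053 to 0.0786). Leaving out control library 2 gave 6 risers and 3 fallers in the list. Genes of iron uptake gave 2 calls of 18 measured, both higher (11.1%, beside 4.31% over all genes). There were 4 risers when control library 1 was left out and 1 when bleomycin library 1, control library 2 or control library 3 was. F6'H1 (AT3G13610), which makes coumarins that mobilise iron, had 44.7, 34.8 and 43.9 CPM after bleomycin, against 19.4, 12.9 and 19.5 CPM in control (log2FC 1.25, SE 0.20, edgeR adjusted p = 0.0037), and NAS2 (1.145) was not called without bleomycin library 1, or control library 2 or 3 (edgeR adjusted p = 0.0543 to 0.0864). The main iron importer IRT1 had 6.28, 1.59 and 0 CPM after bleomycin and 5.695, 1.26 and 0 CPM in control, with overlapping groups (0.18, edgeR adjusted p = 0.969).

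The superoxide dismutases changed in opposite directions. FSD1 (AT4G25100), the iron enzyme, had 697, 821 and 718 CPM after bleomycin, against 64.3, 161 and 77.9 CPM in control (log2FC 2.88, SE 0.34, edgeR adjusted p = 4.0e-04). CSD1 (AT1G08830), the copper/zinc enzyme of the cytosol, had 39.1, 45.4 and 59.05 CPM, against 393, 240.3 and 401 CPM (log2FC -2.85, SE 0.26, edgeR adjusted p = 4.3e-05), and CSD2 (AT2G28190), that of the plastid, had 19.4, 21.03 and 26.1 CPM, against 135, 123 and 154 CPM (log2FC -2.63, SE 0.19, edgeR adjusted p = 4.6e-06). CCS (AT1G12520), the chaperone that loads copper into both, had 17.2, 29.9 and 20.8 CPM, against 56.4, 52.6 and 70.1 CPM (log2FC -1.40, SE 0.19, edgeR adjusted p = 0.0013). The groups did not overlap in any of these 4 genes. In TPM, a level corrected for transcript length, the ratio of FSD1 to the sum of CSD1 and CSD2 was 6.51, 8.29 and 4.85 after bleomycin, against 0.0652, 0.290 and 0.0913 in control. Other dismutases were not called. CSD3 of the peroxisome had 12.1, 16.7 and 13.8 CPM against 16.99, 19.3 and 15.8 CPM (-0.29, edgeR adjusted p = 0.335), and MSD1, the manganese enzyme of mitochondria, had 303, 317 and 333 CPM against 305, 299.8 and 306 CPM (0.07, edgeR adjusted p = 0.728). FSD3 (AT5G23310), an iron enzyme of plastids, had 8.69, 10.9 and 10.3 CPM against 13.5, 14.6 and 20.01 CPM (log2FC -0.69, SE 0.17, edgeR adjusted p = 0.0331). FSD3 was not called without bleomycin library 1, 2 or 3, or control library 2 or 3 (edgeR adjusted p = 0.0546 to 0.158).

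**Figure D3:**
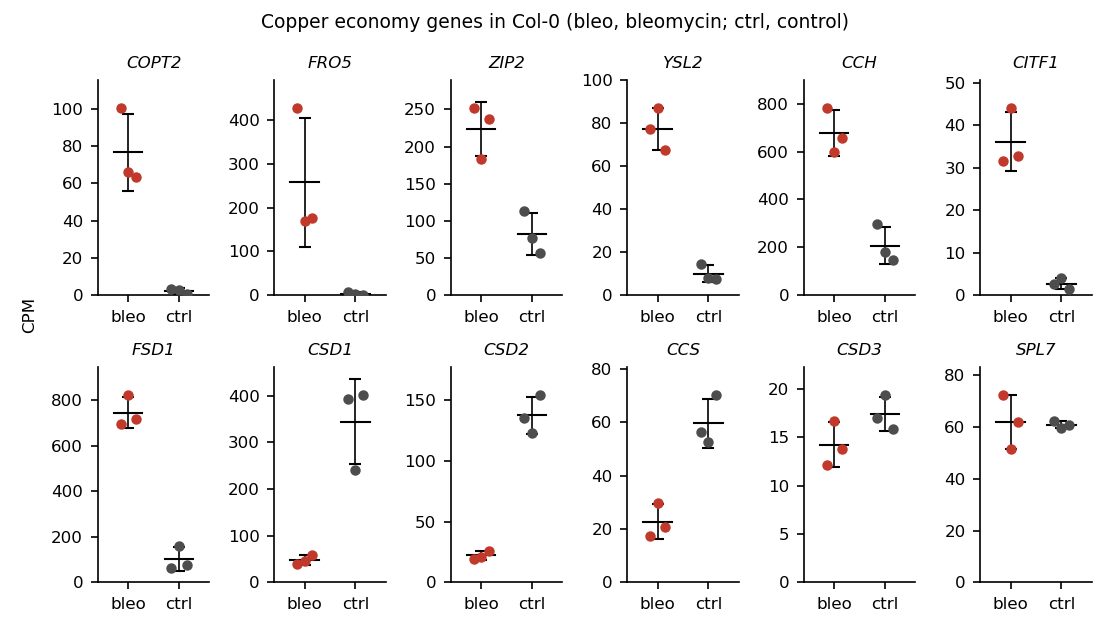
Level in CPM of 12 copper economy genes in each Col-0 library, with bleomycin (bleo) left of control (ctrl). Points are libraries and bars are the mean ± SD of 3 libraries. Uptake genes, CCH, CITF1 and FSD1 lie above control, CSD1, CSD2 and CCS lie below it, and CSD3 and SPL7 overlap with it.

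MicroRNAs of the miR398 family are known to cut the transcripts of CSD1, CSD2 and CCS. Their sequences are shown beside the best-matching stretch of each transcript, referred to as its site. A best match was taken without a cutoff and exists in any transcript, and a part of these microRNAs in the falls was not tested. Each is printed 5′ to 3′ from TAIR10.1, with the seed (bases 2 to 8) in capitals for the microRNAs and the bases that form Watson-Crick pairs with miR398b and miR398c in capitals for the sites.
miR398b-3p, chr5:4691107-4691127, and miR398c-3p, chr5:4694778-4694798, plus strand: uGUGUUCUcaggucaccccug
miR398a-3p, chr2:1041012-1041032, plus strand: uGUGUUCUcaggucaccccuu
miR857, chr4:7878198-7878218, minus strand: uUUUGUAUguugaagguguau
miR397b, chr4:7878730-7878750, minus strand: uCAUUGAGugcaucguugaug
CSD1 site, chr1:2827177-2827685, plus strand, untranslated and spliced: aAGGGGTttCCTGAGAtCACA
CSD2 site, chr2:12015572-12015592, plus strand, coding: tgcGGGTGACCTGgGAAacat
CCS site, chr1:4267521-4267541, minus strand, coding: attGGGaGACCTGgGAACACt
The 3 forms of miR398 share their seed. The CSD1 site as spliced in the transcript of 873 bases has 17 Watson-Crick pairs and 4 mismatches, while that in the CSD1 transcript of 806 bases, spliced differently, has 14 such pairs, 2 G:U pairs and 5 mismatches. The CSD2 site has 13 such pairs, 3 G:U pairs and 5 mismatches, and the CCS site 15 such pairs, 1 G:U pair and 5 mismatches.

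These libraries measure precursor transcripts at best, and mature microRNAs are not analysed here. Loci of copper microRNAs were looked up after their values were seen. MIR857, whose product is known to target a laccase, held 338, 353 and 208 reads after bleomycin, against 7, 1 and 0 in control (log2FC 6.76, SE 1.01, edgeR adjusted p = 0.0023), and its log2FC was 8.87 without control library 1. MIR397b, 90 bases from it on the same strand, held 80, 76 and 70 reads, against 3, 3 and 0 (log2FC 5.15, SE 1.17, edgeR adjusted p = 0.0232). MIR397b was not called without bleomycin library 1, or control library 2 or 3 (edgeR adjusted p = 0.062 to 0.0928). MIR398C held 49, 1 and 44 reads, against 0, 6 and 0 (log2FC 3.86, SE 1.56, edgeR adjusted p = 0.16), so that bleomycin library 2 lay within the control range. MIR408 held 14, 0 and 19 reads, against 9, 6 and 6, with overlapping groups (edgeR adjusted p = 0.807). Without strand information, reads of overlapping or adjoining genes cannot be told apart. MIR408 lies within AT2G47020, on the other strand, which held 4150, 4774 and 3489 reads after bleomycin, against 1314, 1354 and 1351 in control (log2FC 1.63, SE 0.19, edgeR adjusted p = 3.5e-04). NRT2.7 ends 275 bases from MIR398C on the other strand, and AT2G47010, with 37.2, 35.9 and 31.8 CPM against 7.88, 3.900 and 4.84 CPM (log2FC 2.66, SE 0.22, edgeR adjusted p = 1.9e-05), ends 416 bases before MIR408 on the same strand.

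The letters GTAC form the core of the element that SPL7 binds, and the promoters of 6 of the copper genes are shown with it in capitals, from TAIR10.1 and on the strand of the gene. The letters read alike on both strands.
FSD1, chr4:12887123-12887186, minus strand: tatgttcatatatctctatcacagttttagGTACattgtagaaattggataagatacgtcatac
ZIP2, chr5:23992909-23992947, minus strand: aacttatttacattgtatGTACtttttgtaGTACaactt
YSL2, chr5:8323795-8323858, plus strand: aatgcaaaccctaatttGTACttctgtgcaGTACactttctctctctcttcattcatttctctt
CCH, chr3:20864728-20864775, minus strand: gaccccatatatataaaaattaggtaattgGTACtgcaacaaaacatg
CSD1, chr1:2827023-2827059, plus strand: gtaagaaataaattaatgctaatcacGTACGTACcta
CCS, chr1:4269160-4269223, minus strand: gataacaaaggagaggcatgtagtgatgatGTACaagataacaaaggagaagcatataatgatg
The letters stand in 11 of 27 promoters of the copper list, among them genes that rose, genes that fell and genes that were not called, and in 36.9% of promoters of all genes called higher, 34.9% of those called lower and 34.4% of all tested genes. So short a string is common, and its presence says nothing of SPL7.

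Factors known from wounding and regeneration rose in part. Of 21 measured genes 6 were called higher and 0 lower, with a median of 0.47, beside 4.31 and 2.47% called over all genes. ERF114 (AT5G61890), an ethylene response factor linked to regeneration, had 11.02, 15.2 and 6.68 CPM after bleomycin and 0 reads in each control library, at least 433-fold higher (edgeR adjusted p = 4.8e-05). ERF115 (AT5G07310), which drives division of cells beside dead ones, had 6.79, 10.9 and 2.98 CPM, against 0.0491, 0.0807 and 0.126 CPM (log2FC 6.28, SE 0.71, edgeR adjusted p = 6.8e-04). RAP2.6L (AT5G13330) had 26.7, 26.9 and 26.9 CPM, against 16.6, 14.5 and 14.1 CPM (log2FC 0.83, SE 0.15, edgeR adjusted p = 0.0066). The groups of these genes did not overlap. The DOF factor DOF3.4 (AT3G50410) had 1.13, 2.25 and 1.39 CPM, against 0.0491, 0 and 0 CPM (log2FC 6.32, SE 1.52, edgeR adjusted p = 0.0291). DOF3.4 was not called without bleomycin library 1, 2 or 3, or control library 2 or 3 (edgeR adjusted p = 0.053 to 0.134), and its log2FC was 8.94 without control library 1. ANAC096 (2.14) was not called without bleomycin library 1 or 2, or control library 2 or 3 (edgeR adjusted p = 0.0648 to 0.0987), and PSK5, a precursor of the growth peptide phytosulfokine (1.41), not without bleomycin library 1, 2 or 3, or control library 1, 2 or 3 (edgeR adjusted p = 0.0502 to 0.161). WIND1, a factor of wound callus, had 223, 257 and 177 CPM against 155, 172 and 148 CPM and missed the threshold (log2FC 0.47, SE 0.14, edgeR adjusted p = 0.0662). ERF109 had 0.401, 22.2 and 6.65 CPM against 6.997, 9.74 and 6.95 CPM, the widest scatter of the list within the bleomycin group. The list held 3 risers when bleomycin library 1 or 2 or control library 2 or 3 was left out.

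No gene that marks the stem cell niche was called. Of 11 measured genes 0 were called by edgeR or limma voom, with a median of -0.31, while DESeq2 called 1 higher and 2 lower. At an unadjusted p under 0.05 edgeR gave 1 higher and 4 lower, and 1 was called lower when control library 1 was left out. WOX5, made in the quiescent centre, had 2.504, 3.04 and 1.96 CPM after bleomycin, against 0.786, 0.646 and 0.655 CPM in control, groups that do not overlap although the gene missed the threshold (log2FC 1.84, SE 0.65, edgeR adjusted p = 0.106). PLT2 had 12.6, 20.6 and 14.4 CPM against 13.6, 19.8 and 15.1 CPM, and SHR had 41.1, 32.1 and 40.9 CPM against 41.6, 50.995 and 48.96 CPM (-0.03 and -0.31, edgeR adjusted p = 0.961 and 0.188). BRAVO, a repressor of division in the quiescent centre, had 1.33, 0.177 and 1.05 CPM against 2.04, 3.604 and 3.48 CPM (log2FC -1.83, SE 0.66, edgeR adjusted p = 0.111). Of 28 hormone genes of cytokinin and auxin feedback 4 were called higher and 1 lower, beside 4.31 and 2.47% over all genes. PIN4 (AT2G01420), an auxin exporter of the root tip, was lower with 18.5, 26.4 and 38.6 CPM after bleomycin, against 59.5, 62.7 and 69.3 CPM in control (log2FC -1.20, SE 0.23, edgeR adjusted p = 0.01). The auxin-induced genes IAA5 (1.55, 1.898 and 1.21 CPM against 0.0245, 0 and 0 CPM, log2FC 7.06, SE 1.44, edgeR adjusted p = 0.0142) and IAA29 (6.11, 8.81 and 4.18 CPM against 0.687, 0.538 and 0.302 CPM, log2FC 3.64, SE 0.71, edgeR adjusted p = 0.011) were not called without control library 2 (edgeR adjusted p = 0.0806) or control library 3 (edgeR adjusted p = 0.0712) for IAA5 and control library 2 (edgeR adjusted p = 0.0607) or control library 3 (edgeR adjusted p = 0.0631) for IAA29, and the log2 fold change of IAA5 was 8.90 without control library 1. GH3.3 (3.57) was not called without bleomycin library 1 or 2, or control library 2 or 3 (edgeR adjusted p = 0.0555 to 0.109) and was at 5.06 without control library 1, and IAA17 (0.53) not without bleomycin library 1 or 3, or control library 2 or 3 (edgeR adjusted p = 0.0865 to 0.143). Of the 28 genes 0 were called higher when control library 2 or 3 was left out, 2 without bleomycin library 1 and 7 without control library 1.

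DNA methylation and small RNA genes moved singly. Of 33 measured genes 2 were called higher and 3 lower (6.06 and 9.09%), beside 4.31 and 2.47% over all genes. In this list 1 gene was lower when control library 3 was left out. DRM1 (AT5G15380), a DNA methyltransferase, had 6.33, 8.401 and 4.400 CPM after bleomycin and 0 reads in each control library, at least 252-fold higher (edgeR adjusted p = 0.0029), while its main relative DRM2 had 13.5, 12.3 and 12.2 CPM against 17.7, 15.5 and 14.7 CPM (-0.33, edgeR adjusted p = 0.252). AGO2 (AT1G31280), an Argonaute known from antiviral defence and break repair, had 57.01, 42.4 and 47.5 CPM, against 15.8, 13.7 and 14.03 CPM (log2FC 1.76, SE 0.14, edgeR adjusted p = 1.5e-05). AGO10 (AT5G43810), an Argonaute known to maintain shoot stem cells, was lower with 30.4, 21.96 and 27.1 CPM, against 46.1, 49.2 and 59.3 CPM (log2FC -0.96, SE 0.18, edgeR adjusted p = 0.0079). The groups of these genes were apart. NRPD2B (AT3G18090), annotated as a subunit of a plant-specific RNA polymerase, had 1.13, 0.810 and 1.29 CPM against 5.01, 4.12 and 8.82 CPM (log2FC -2.47, SE 0.47, edgeR adjusted p = 0.0096). NRPD2B was not called without control library 3 (edgeR adjusted p = 0.0514). SUVH5 (-0.69), a histone methyltransferase, was not called without bleomycin library 1, 2 or 3, control library 2 or 3, or triple mutant control library 2 (edgeR adjusted p = 0.0546 to 0.186).

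Enzyme families of detoxification and specialised metabolism held many risers and few fallers. Among cytochrome P450 genes 16 of 151 were called higher (median log2 fold change 0.39), among UDP-glycosyltransferases 12 of 108 (0.29) and among glutathione transferases 10 of 48 (0.45), beside 4.31% over all genes, and 0, 0 and 2 were called lower. With control library 2 or control library 3 left out the risers numbered 5, 3 and 2, and with bleomycin library 1 left out 6, 7 and 5. Without bleomycin library 3 there were 5 UDP-glycosyltransferases and 6 glutathione transferases called higher. A P450 was called lower in 3 of the fits with 1 library left out, those without control library 3 and triple mutant bleomycin libraries 2 and 3, and a UDP-glycosyltransferase without triple mutant bleomycin library 2. PAD3 (AT3G26830), the P450 that completes camalexin, a defence compound, had 15.4, 13.03 and 12.3 CPM after bleomycin, against 1.105, 0.457 and 1.34 CPM in control (log2FC 3.81, SE 0.36, edgeR adjusted p = 5.3e-05), and was the 1 gene called of 11 camalexin and salicylic acid genes, of which 2 were called higher without control library 1 or control library 3, and 3 without triple mutant control library 3. CYP81D5 (AT4G37320) had 14.02, 9.26 and 10.2 CPM, against 4.52, 2.797 and 3.603 CPM (log2FC 1.62, SE 0.27, edgeR adjusted p = 0.0047). UGT87A2 (AT2G30140) had 30.8, 26.7 and 31.7 CPM, against 13.6, 10.1 and 11.01 CPM (log2FC 1.36, SE 0.17, edgeR adjusted p = 6.1e-04). The groups were apart in these genes. GSTU22 (AT1G78340) had 314, 256 and 304 CPM, against 158, 99.8 and 115 CPM (log2FC 1.23, SE 0.16, edgeR adjusted p = 7.0e-04), and ATGSTF13 (AT3G62760), of another class of the same enzymes, was lower with 0.776, 1.09 and 1.851 CPM, against 7.07, 15.04 and 12.3 CPM (log2FC -3.21, SE 0.46, edgeR adjusted p = 0.0018).

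Cell wall genes rose in several families but not in all. Arabinogalactan proteins gave 2 risers of 46 (4.35%, median 0.15) and cellulose synthases 2 of 27 (7.41%, median 0.29), beside 4.31% over all genes. Class III peroxidases, which cross-link wall polymers, gave 11 risers of 56 measured and the highest median of the families, 0.86. Prx37 (AT4G08770) had 118, 83.2 and 95.8 CPM after bleomycin, against 47.4, 46.1 and 56.2 CPM in control (log2FC 0.99, SE 0.15, edgeR adjusted p = 0.0029). AT5G06730, another peroxidase, had 12.9, 12.7 and 9.76 CPM, against 5.401, 4.92 and 2.44 CPM (log2FC 1.47, SE 0.29, edgeR adjusted p = 0.0128). The number of peroxidase risers was 24 when control library 1 was left out, and 2 and 3 when control library 2 and control library 3 were. Leaving out bleomycin library 1 gave 4, and leaving out bleomycin library 3 gave 7. As sums, markers of maturing tissue moved in the same direction and were also higher in control library 1 than in the other controls. Endodermis markers summed to 910, 467 and 662 CPM after bleomycin, against 669, 264 and 324 CPM in control, and their groups overlapped. Xylem markers summed to 320, 159 and 208 CPM, against 206, 110 and 117 CPM, again with overlap. Of the 9 endodermis and 10 xylem markers measured 0 and 0 were called higher by edgeR, with medians of 0.69 and 0.75, DESeq2 called 0 and 1 and limma voom 0 and 0. At an unadjusted p under 0.05 edgeR gave 4 and 3, and 5 and 3 were called higher when control library 1 was left out. The xylem list also held 1 gene called lower, ACL5 (log2FC -1.20), while 9 of its 10 members had a log2FC above 0. Root hair markers summed to 652, 600 and 609 CPM, against 514, 388 and 362 CPM, and 1 of 9, LRX1, was called higher (0.71) but not without bleomycin library 1 or 2, control library 2 or 3, triple mutant bleomycin library 1 or 2, or triple mutant control library 2 or 3 (edgeR adjusted p = 0.0553 to 0.201). Without triple mutant control library 1 there were 2 root hair genes called higher. The part of tissue composition in the rise of wall genes was not tested.

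Beside 4.31 and 2.47% called higher and lower over all genes, extensins, structural proteins of the wall, gave 6 risers of 36 with a median of 0.61. Their number was 11 when control library 1 was left out, 2 without bleomycin library 1, and 1 without bleomycin library 2, control library 2 or control library 3. It was 2 as well when triple mutant bleomycin library 1 or triple mutant control library 2 was left out. EXT3, described above, was among them. Xyloglucan-modifying enzymes gave 3 risers and 1 faller of 24, with 5 risers when control library 1 or triple mutant control library 3 was left out and 1 when bleomycin library 2 or control library 2 or 3 was. XTH28 (AT1G14720) had 39.7, 41.5 and 32.2 CPM after bleomycin, against 10.2, 9.74 and 9.32 CPM in control (log2FC 1.95, SE 0.15, edgeR adjusted p = 1.2e-05), with closely spaced replicates. Among pectin-modifying enzymes 11 of 102 were called higher and 2 lower, and the risers were 3 without control library 2, 4 without control library 3, 6 without bleomycin library 1 or 3, 7 without bleomycin library 2 and 20 without control library 1. The 2 fallers became 5 without control library 1 and 1 without bleomycin library 2, control library 2 or 3, triple mutant bleomycin library 1 or 2, or any triple mutant control library. PME5 (AT5G47500), a pectin methylesterase, was lower with 12.7, 25.3 and 18.6 CPM, against 48.04, 80.3 and 79.8 CPM (log2FC -1.88, SE 0.31, edgeR adjusted p = 0.0039). CESA5 (AT5G09870), a cellulose synthase subunit of growing walls, had 77.8, 84.9 and 89.4 CPM, against 51.8, 48.6 and 49.6 CPM (log2FC 0.75, SE 0.12, edgeR adjusted p = 0.0037), and EXPA14 (AT5G56320), an expansin, which loosens walls, had 121, 181 and 183 CPM, against 61.7, 88.4 and 99.6 CPM (log2FC 0.96, SE 0.18, edgeR adjusted p = 0.0104). The groups did not overlap in these genes.

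Transcription factors of the NAC and WRKY families held risers and no fallers. NAC factors gave 13 risers and 0 fallers of 70 (median 0.49), and WRKY factors 9 and 0 of 57 (0.47). With control library 2 left out these counts were 4 and 3, and with control library 3 left out 6 and 3. Without bleomycin library 1 there were 7 NAC risers, and without bleomycin library 2 there were 4 WRKY risers. NAC103 (AT5G64060), named after its value was seen, had 26.8, 45.8 and 20.9 CPM after bleomycin, against 1.301, 1.24 and 2.54 CPM in control (log2FC 4.20, SE 0.74, edgeR adjusted p = 0.0063). NAC053 (AT3G10500) had 130.3, 113 and 114 CPM, against 59.9, 39.5 and 44.7 CPM (log2FC 1.31, SE 0.18, edgeR adjusted p = 0.0013), and NAC083 (AT5G13180), a regulator of xylem vessels, had 78.2, 62.1 and 60.6 CPM, against 41.98, 29.2 and 30.5 CPM (log2FC 0.98, SE 0.17, edgeR adjusted p = 0.0062). WRKY48 (AT5G49520) had 24.6, 51.998 and 22.7 CPM, against 2.14, 1.802 and 3.15 CPM (log2FC 3.81, SE 0.55, edgeR adjusted p = 0.0019), and WRKY25 (AT2G30250) had 34.9, 37.4 and 32.6 CPM, against 16.96, 10.9 and 10.4 CPM (log2FC 1.46, SE 0.24, edgeR adjusted p = 0.0037). In these genes all bleomycin libraries lay above control, and bleomycin library 2 was the highest for NAC103 and WRKY48. AP2/ERF factors gave 6 risers and 0 fallers of 73 (0.19). Over all genes 4.31% were called higher and 2.47% lower.

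Ribosomal protein genes had the largest shares of fallers among the families. Of 175 large-subunit genes 69 were called lower and 3 higher, with a median of -0.46, and of 116 small-subunit genes 26 were called lower and 1 higher, with a median of -0.44, beside 2.47% called lower over all genes. Nearly all shifted the same way: 164 of the large-subunit and 109 of the small-subunit genes had a log2 fold change below 0. The large-subunit genes summed to 31152, 40092 and 41112 CPM after bleomycin, against 46113, 56195 and 58041 CPM in control, and the small-subunit genes to 24293, 30501 and 31229 CPM, against 34614, 41488 and 42711 CPM. The groups did not overlap in either sum, and library 1 was the lowest of each group. The folds were small, and the counts of fallers rested on single libraries. For the large and small subunit they were 2 and 2 when control library 2 was left out, 5 and 0 for control library 3, and 91 and 53 for control library 1. They were 3 and 2 when bleomycin library 1 was left out and 40 and 9 for bleomycin library 2. Leaving out triple mutant control library 1 or 2 gave 45 and 17. The sets include proteins of organelle ribosomes, and RPL21C (AT1G35680), which was called in every fit with 1 library left out, had 15.9, 17.1 and 20.5 CPM after bleomycin, against 27.4, 29.4 and 34.8 CPM in control (log2FC -0.77, SE 0.14, edgeR adjusted p = 0.0064). AT1G29070, annotated as ribosomal protein L34, had 9.54, 12.02 and 11.5 CPM, against 18.5, 22.5 and 23.3 CPM (log2FC -0.96, SE 0.15, edgeR adjusted p = 0.0025). AT1G09690, among the 8 genes that lost the most CPM, had 537, 705 and 742 CPM against 904, 1155 and 1162 CPM (log2FC -0.70, SE 0.14, edgeR adjusted p = 0.0136). AT1G09690 was not called without control library 2 (edgeR adjusted p = 0.0743) or control library 3 (edgeR adjusted p = 0.0706). Reads of near-identical ribosomal and histone copies are split by estimation. Histone genes gave 7 fallers and 1 riser of 48, with a median of -0.29, 0 fallers without bleomycin library 1 or control library 2 or 3, 2 without bleomycin library 2 and 13 without bleomycin library 3, and 4 without triple mutant bleomycin library 1 or triple mutant control library 1 or 2.

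**Figure D4:**
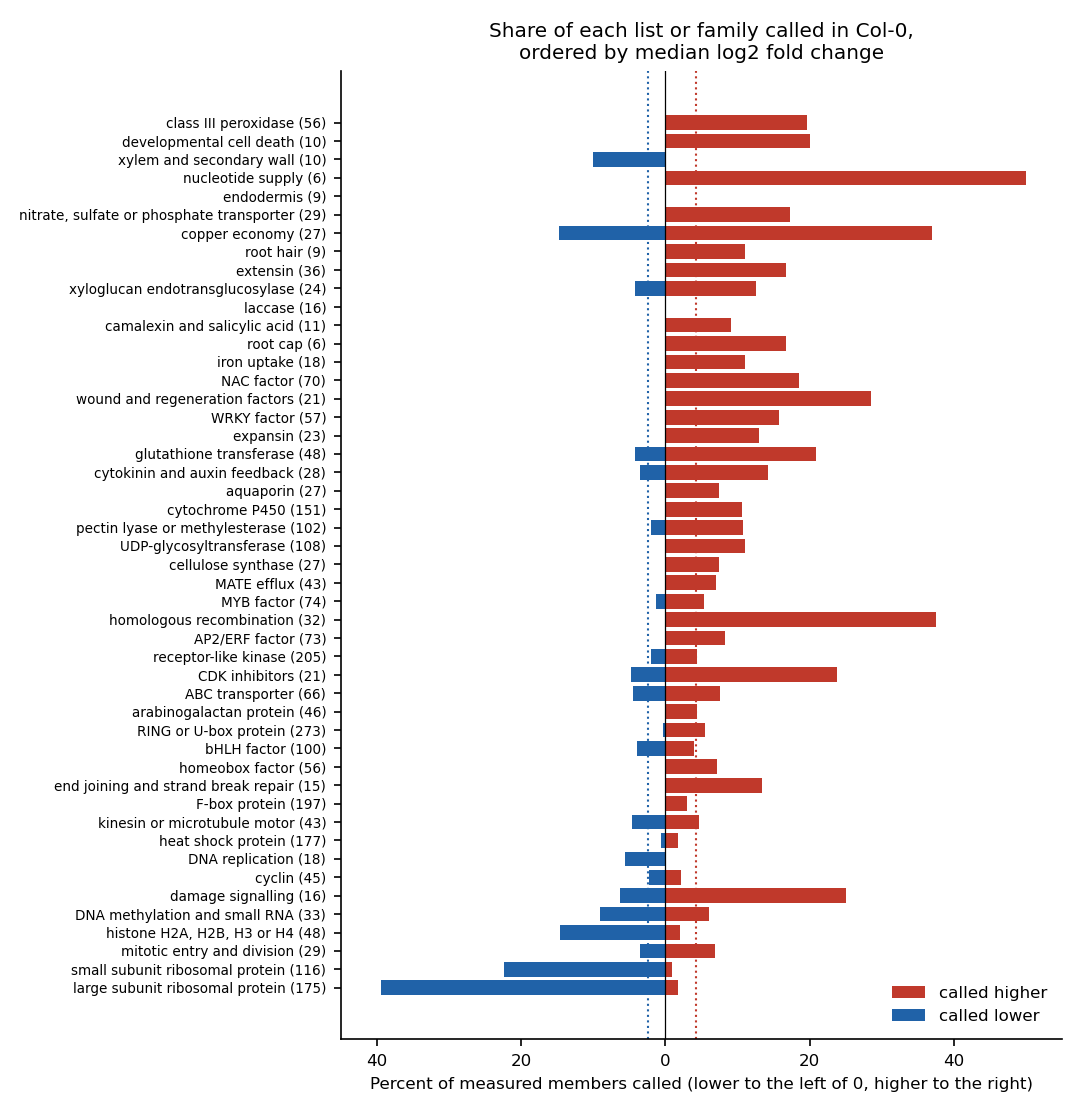
Percentage of the measured members of each gene list or family (number measured in brackets) called higher, to the right in red, and called lower, to the left in blue, in Col-0 root tips after bleomycin, ordered by median log2 fold change from the highest at the top. The 9 endodermis markers and 16 laccases have no bar because 0 were called. Dotted lines mark the shares over all tested genes, 4.31% higher and 2.47% lower. Nucleotide supply, homologous recombination and copper economy reach the highest shares called higher, and large-subunit ribosomal proteins the highest share called lower.

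Outside these families, the genes with the largest falls were few and of mixed kinds. AT5G48480, annotated as a glyoxalase I family protein, had 6.63, 4.18 and 8.21 CPM after bleomycin, against 23.8, 29.1 and 35.1 CPM in control (log2FC -2.21, SE 0.28, edgeR adjusted p = 7.1e-04). AT4G20320, a CTP synthase gene, had 11.8, 12.4 and 17.9 CPM, against 28.1, 51.3 and 52.01 CPM (log2FC -1.64, SE 0.24, edgeR adjusted p = 0.0021). AT1G04425, a noncoding RNA, had 1.93, 4.12 and 5.45 CPM, against 9.65, 14.8 and 17.99 CPM (log2FC -1.89, SE 0.35, edgeR adjusted p = 0.0082). None of these overlapped between groups. Among fallers with the lowest p, CP29 (AT3G53460), a chloroplast RNA-binding protein, had 57.4, 71.1 and 86.4 CPM, against 154, 162 and 151 CPM (log2FC -1.12, SE 0.14, edgeR adjusted p = 5.9e-04). Another was ACL5 (AT5G19530) of the xylem list, which makes thermospermine and restrains xylem differentiation. ACL5 had 8.84, 9.49 and 11.3 CPM, against 21.2, 20.95 and 26.03 CPM (log2FC -1.20, SE 0.17, edgeR adjusted p = 0.0017). ER (AT2G26330), the ERECTA receptor kinase, had 0.200, 1.42 and 0.832 CPM against 3.46, 4.95 and 7.76 CPM (log2FC -2.72, SE 0.59, edgeR adjusted p = 0.0194). ER was not called without control library 2 (edgeR adjusted p = 0.0615) or control library 3 (edgeR adjusted p = 0.0841), and its log2FC was -3.39 without bleomycin library 2. ENODL13 (AT5G25090) had 1.13, 3.11 and 5.66 CPM against 12.3, 16.8 and 24.7 CPM (log2FC -2.45, SE 0.51, edgeR adjusted p = 0.0155). ENODL13 was not called without bleomycin library 2, or control library 2 or 3 (edgeR adjusted p = 0.0508 to 0.0713), and its log2FC was -3.08 without bleomycin library 3.

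The same genes were looked up in the triple mutant, whose bleomycin and control libraries are separate from those of Col-0. There, 905 genes were called higher (4.22%) and 822 lower (3.83%). Of the 925 genes called higher in Col-0, 918 had a log2 fold change above 0 in the mutant, with a median of 0.81, and 565 were called higher there, which is 61.1% of the Col-0 risers and 62.4% of the mutant's. Of the 530 called lower in Col-0, 528 were below 0 in the mutant, with a median of -0.61, and 355 were called lower, 67.0% of the Col-0 fallers and 43.2% of the mutant's. None of the 1455 was called in opposite directions. The difference between the genotypes, tested as an interaction, was called for 0 of 21457 genes by edgeR, DESeq2 or limma voom, with 377 genes (1.76%) at an unadjusted p under 0.05 and a lowest adjusted p of 1 in edgeR. DOF3.4 had a log2FC of -0.28 in the mutant, against 6.32 in Col-0, and the difference, Col-0 minus mutant, was 6.59 (SE 1.89, edgeR adjusted p = 1). The SMR7 rise had a log2 fold change of 7.74 in the mutant, against 7.01 in Col-0, that of BRCA1 3.71 against 3.21, that of COPT2 4.62 against 5.06, and the fall of CSD1 -2.50 against -2.85. The copper list gave 10 risers and 4 fallers in the mutant as well, and recombination genes 12 and 0. The mutant's fallers included 101 large-subunit and 70 small-subunit ribosomal protein genes.

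**Figure D5:**
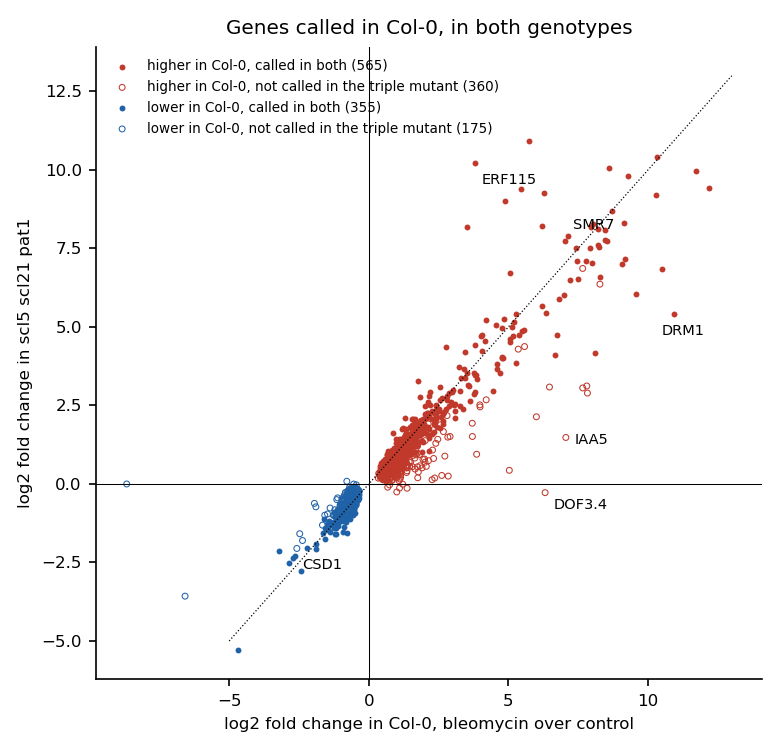
Log2 fold change after bleomycin in the triple mutant (vertical) against that in Col-0 (horizontal) for the 1455 genes called in Col-0. Filled points, 565 red and 355 blue, are also called in the same direction in the mutant, open points are not called there, and the dotted line marks equal changes. Of the 1455 points, 918 red ones lie above 0 and 528 blue ones below 0 on the vertical axis.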

How the data were processed

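RNA was sequenced from pooled root tips, with 3 libraries in each of 4 groups, at 36.3 to 40.9 M reads a library. Transcripts were quantified with Salmon 0.9.1, per the submitters' processing notes, which also name CASAVA; the genome build is not given in the sources used here. The deposited values are the authors' estimated counts of reads per transcript and TPM, which Salmon scales to transcript length. Here, estimated counts were summed per locus and rounded, after 30576 transposon transcripts were left out. Of transcripts named in both, 78.3% had the same length as in RefSeq TAIR10.1, which gave names, promoters and microRNAs.

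A single model with group as its term was fitted to all 12 libraries with edgeR 4.0.16 (TMM scaling, filterByExpr, quasi-likelihood test, 8 residual degrees of freedom) in R 4.3.3, with Benjamini-Hochberg adjustment over all 21561 loci tested, 21457 of them nuclear, and a threshold of 0.05. A fold against 0 control reads was computed against 3 reads summed over the control group. Alternatives used DESeq2 1.42.0, limma 3.58.1, other scalings, filters and sample sets, and each library left out. The procedure was tested on simulated data for this comparison, on 21561 loci with 50 genes changed at each size. It recovered 0% of 1.5-fold, 16% of 2-fold and 100% of 4-fold and 8-fold changes, and 8.47% of its calls were false. In that simulation every gene had the same spread between replicates, while real genes differ in spread, so these shares do not describe the real calls.

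Genes, lists and families were chosen with earlier results of these data known. There were 17 lists of 330 genes, 3 lists added after the values were seen, and 30 families defined by words in the gene's description. The genes named were among called genes the 12 largest rises and 12 largest falls, taken from those with a mean of at least 2 CPM and groups that did not overlap, the 8 that gained and the 8 that lost the most CPM, the 8 with the lowest p in each direction, up to 6 called members of each list and up to 3 of each family and direction by p, and 17 fixed genes. Others, among them list members without a call and microRNA loci, were named after their values were seen. A result on some members of a list is not reported here.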

Additional observations from a re-analysis of the deposited data

How the results depend on the processing

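The count of calls moved with the spread estimate and with single libraries. The genes called higher, genes called lower and calls past 2-fold were 1698, 1018 and 887 by DESeq2, and 1452 of the 1455 edgeR calls were among its calls. With the Col-0 libraries alone edgeR gave 630 higher and 195 lower, and 754 of these 825 calls were among the 1455 (51.8% of them). Tested against a fold of 1.5, there were 185 higher and 12 lower. Leaving out each library in turn gave 285 to 1333 higher, 71 to 748 lower and 245 to 901 past 2-fold. With a replicate block, edgeR gave 2050 higher, 1387 lower and 888 past 2-fold, and 2228, 1481 and 984 with the Col-0 libraries alone. Equal replicate numbers correlated at 0.39, 0.13 and 0.07 between the treatments, and unequal numbers at -0.26 to 0.14. The highest of the unequal pairs was bleomycin library 2 with control library 3. On the first principal component, libraries 1, 2 and 3 stood in that order from high to low in each of the 4 groups. The labels name no pairing, and whether libraries of equal number share more than the number was not tested. Other scalings and filters and limma voom gave 903 to 997 higher and 497 to 663 lower. In 300 bases around the start the SOG1 letters stood in 13.9% of risers' and 10.2% of fallers' promoters, AACGG in 21.8 and 33.4%, and GTAC in 41.5 and 40%. Named genes that lost their call without a single library kept the sign of their log2FC. The balance of calls in some families did change. Cellulose synthases gave 1 riser and 2 fallers without bleomycin library 3, against 2 and 0 in the main fit. Without bleomycin library 2, extensins gave 1 and 1, against 6 and 0, and arabinogalactan proteins 2 and 2, against 2 and 0. Of 213 named genes, 97 lost their call without control library 2, 92 without control library 3, 54 with the Col-0 libraries alone, 125 against a fold of 1.5 and 0 under DESeq2 or the replicate block. Depth limits genes of few reads. Changes of 2-fold were seldom recovered in simulated data with the same spread for all genes, while most real genes called lower changed by less than 2-fold.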

Other observations

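Genes of developmental cell death, which are known from the dying outer cells of the root cap and from vessels, lay above control by log2FC. Their sums were 397, 232 and 292 CPM after bleomycin, against 240, 134 and 150 CPM in control, and the groups overlapped. XCP1 and XCP2 are also members of the xylem list. Of 10 measured genes 10 had a log2FC above 0, with a median of 0.77, and 2 were called higher, beside 4.31% over all genes. RNS3, a ribonuclease, had 57.2, 47.8 and 49.95 CPM after bleomycin, against 40.6, 29.5 and 29.5 CPM in control (log2FC 0.64, SE 0.15, edgeR adjusted p = 0.0257). RNS3 was not called without bleomycin library 1, or control library 2 or 3 (edgeR adjusted p = 0.0952 to 0.134). SCPL48, a carboxypeptidase, had 76.7, 51.4 and 58.4 CPM, against 45.5, 27.004 and 33.3 CPM (log2FC 0.82, SE 0.21, edgeR adjusted p = 0.0366). SCPL48 was not called without bleomycin library 1 or 3, control library 2 or 3, or triple mutant control library 1 (edgeR adjusted p = 0.0505 to 0.163). The list's risers numbered 6 when control library 1 was left out, 1 without bleomycin library 3 or triple mutant control library 1 and 0 without bleomycin library 1, control library 2 or control library 3. Of 6 root cap genes, 1 was called higher, and the log2FC values of the list ran from -1.41 to 0.60, with 2 below 0. BRN2, a factor of the root cap, had 22.7, 26.8 and 19.7 CPM, against 12.9, 15.5 and 17.2 CPM (log2FC 0.60, SE 0.16, edgeR adjusted p = 0.0409). BRN2 was not called without bleomycin library 1 or 2, control library 1, 2 or 3, triple mutant bleomycin library 1, or triple mutant control library 2 (edgeR adjusted p = 0.0568 to 0.141). FEZ, a factor of root cap stem cells, had 1.33, 2.13 and 3.97 CPM, against 5.97, 6.89 and 6.88 CPM (log2FC -1.41, SE 0.52, edgeR adjusted p = 0.116), and SMB, a factor of root cap maturation, had 26.1, 32.6 and 22.9 CPM, against 23.8, 36.2 and 34.5 CPM (log2FC -0.21, SE 0.21, edgeR adjusted p = 0.587).

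Called genes lay next to one another in part. Of the 925 genes called higher, 133 (14.4%) had a neighbouring tested gene that was also called higher, while 8.37% of all tested genes had such a neighbour. Of the 530 called lower, 17 (3.21%) had a neighbour called lower, against 4.87% of all tested genes. AOX1C, an alternative oxidase of mitochondria, lies 184 bases from SMR7 and had 4.46, 2.48 and 4.43 CPM after bleomycin, against 0.0736, 0.430 and 0.302 CPM in control (log2FC 3.81, SE 0.61, edgeR adjusted p = 0.0058). Both genes lie on the minus strand and do not overlap, and AOX1C follows SMR7 on that strand. Whether the reads of AOX1C came from its own transcripts was not tested.

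The letters AACGG, the core of an element known from genes of mitosis, were searched on both strands of the 250 bases before each start. They stood in 17.9% of promoters of genes called higher, 28.3% of those of genes called lower and 21.8% of all, and in 16 of 29 promoters of the mitosis list.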
